A study of Homo sapiens with 100 samples.

Results

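The 10 genes described here regulate the G1 phase of the cell cycle. They are the D cyclins CCND1, CCND2 and CCND3, the E cyclins CCNE1 and CCNE2, the cyclin-dependent kinases CDK4 and CDK6, and the kinase inhibitors CDKN1B, CDKN2C and CDKN2D. They were taken by gene symbol from a table of 78894 gene rows, and each symbol matched 1 row. Their transcripts were counted by 3' bulk RNA-seq in TMD8, an established human lymphoma line (diffuse large B-cell, activated subtype). TMD8 cells depend on BTK (Bruton tyrosine kinase), which carries the signal of the B-cell receptor. 6 single-cell clones carried the A428D change in BTK at the endogenous locus and 5 single-cell clones were wild-type (WT). The sample titles attach A428D to SF3B1, whereas the growth protocol and the design text place it in BTK. Each clone was exposed for 24 h to zelebrudomide with venetoclax, bexobrutideg with venetoclax, pomalidomide with venetoclax, venetoclax, zelebrudomide, bexobrutideg, pomalidomide or the solvent DMSO, which gave 88 libraries in 16 groups. A further 12 libraries came from untreated cells, 1 of each clone and 1 of the parental line. All cells were kept in Alpha MEM with fetal bovine serum. Bexobrutideg recruits the E3 ligase cereblon to BTK, which is then degraded. Zelebrudomide does the same and also directs cereblon to IKZF1 and IKZF3, lymphoid transcription factors that are the known targets of the immunomodulatory drug pomalidomide. Venetoclax blocks the survival protein BCL2. The doses are not given in the sources used here, so compounds are set side by side at doses that may differ. Every clone derives from 1 line, and the tests use the spread between clones. Tests that set each clone against itself use the spread between clones in the size of the change.

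In G1 a cell takes up mitogen signals and decides whether to replicate its DNA. D cyclins bind CDK4 and CDK6, E cyclins bind CDK2, and the active kinases phosphorylate the retinoblastoma protein, which frees E2F factors to transcribe S phase genes, among them CCNE1 and CCNE2 themselves. The INK4 inhibitors p18 (CDKN2C) and p19 (CDKN2D) bind CDK4 and CDK6, and p27 (CDKN1B) binds cyclin E with CDK2 and also the D-type complexes. In B cells, signals from the B-cell receptor raise cyclin D2, the product of CCND2, and MYC is a known activator of CDK4, whereas FOXO factors are known activators of CDKN1B.

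By a GENCODE annotation of GRCh38, the build of the deposited counts, the genes lie on 7 chromosomes, with CCND1 at chr11:69641087-69654474 (+), CCND2 at chr12:4273772-4305350 (+), CCND3 at chr6:41934933-42050357 (-), CCNE1 at chr19:29811898-29824308 (+), CCNE2 at chr8:94879770-94896678 (-), CDK4 at chr12:57747727-57756013 (-), CDK6 at chr7:92604921-92836594 (-), CDKN1B at chr12:12715058-12722371 (+), CDKN2C at chr1:50960745-50974633 (+) and CDKN2D at chr19:10566462-10569059 (-).

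CCNE1, CDKN2C and CDKN2D overlap no other gene in that annotation. CCND1 overlaps LTO1, CCND2 overlaps the antisense gene CCND2-AS1, CCNE2 overlaps INTS8 and NDUFAF6, and CDK4 overlaps TSPAN31 and MARCH9. CCND3 overlaps RNU6-761P, CDK6 overlaps RNU6-10P and CDKN1B overlaps AC008115.3. The sources used here do not state whether the counting used strand, so reads of these neighbours cannot be told apart from those of the member where they overlap.

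RefSeq promoter windows on GRCh38.p14, which run from 250 bases before to 50 bases after a transcription start, matched 7 of the 10 genes (12 windows), and CCND1, CCND2 and CCNE2 were not matched. The windows are shown for 3 genes that rose together with venetoclax in the results below, because CDK4 and CDK6 carry the E-box that MYC binds and CCNE1 carries GC boxes. CDK4 is shown from chr12:57752261-57752560 and CDK6 from chr7:92836524-92836823, both on the minus strand, with the E-box CACGTG in capitals. CCNE1 is shown from chr19:29811741-29812040, on the plus strand, with the GC box GGGGCGGGG, or its reverse complement CCCCGCCCC, in capitals.
CDK4: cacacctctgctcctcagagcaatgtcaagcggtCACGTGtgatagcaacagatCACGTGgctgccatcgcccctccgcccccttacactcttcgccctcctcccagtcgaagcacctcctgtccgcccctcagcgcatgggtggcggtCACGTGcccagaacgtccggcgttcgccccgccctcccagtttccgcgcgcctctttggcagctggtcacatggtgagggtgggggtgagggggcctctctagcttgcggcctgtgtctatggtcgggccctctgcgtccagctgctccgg
CDK6: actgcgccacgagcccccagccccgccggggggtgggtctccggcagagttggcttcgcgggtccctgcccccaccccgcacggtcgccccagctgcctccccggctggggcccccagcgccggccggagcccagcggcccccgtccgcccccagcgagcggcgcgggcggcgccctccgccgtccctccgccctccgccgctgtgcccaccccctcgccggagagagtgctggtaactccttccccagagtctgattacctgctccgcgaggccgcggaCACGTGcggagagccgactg
CCNE1: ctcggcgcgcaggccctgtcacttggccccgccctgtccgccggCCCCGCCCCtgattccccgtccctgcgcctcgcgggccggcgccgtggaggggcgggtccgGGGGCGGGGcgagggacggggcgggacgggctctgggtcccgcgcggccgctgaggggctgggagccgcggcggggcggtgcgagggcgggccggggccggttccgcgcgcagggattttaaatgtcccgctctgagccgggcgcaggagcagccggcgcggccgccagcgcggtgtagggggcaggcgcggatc
The CDK4 window held 3 E-boxes, which began at -216, -196 and -101 from the start, and the main CDK6 window held 1, at +30. An E-box was present in 7.26% of 35116 RefSeq promoter windows of this length, and 3 or more in 0.094%. The GC boxes of CCNE1 began at -206 and -145, and 15.7% of all windows held at least 1. CDKN2C held 1 E-box in each of 2 of its 3 windows, and CCND3 held 2 GC boxes in each of 2 of its 3 windows. 4 spellings of the E2F motif (TTTCCCGC, TTTCGCGC, TTTGCCGC and TTTGGCGC, both strands) were together present in 3.31% of all windows and in no member window. The FOXO motif GTAAACA was present in 3.42% of windows, and 1 member window, of CCND3, held it. No motif overlapped another in the windows shown.

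Libraries of the 24 h set held 1476519 to 9388855 counts (median 6980897), and untreated libraries 10400854 to 12501775. Genes of the mitochondrial genome took 6.24% to 11.1% of a library. The 7 B cell markers together reached 1566 to 3388 CPM (counts per 1e6 counts of a library) in every library, T cell markers at most 3.63 CPM and myeloid markers at most 2.49 CPM. 1 library stands apart, the WT clone 3 exposed to bexobrutideg with venetoclax, with 1476519 counts. It held 266 CPM of CCND2, 16.03 CPM of CCNE2, 20.5 CPM of CDK4, 63.1 CPM of CDK6 and 44.6 CPM of CDKN1B. In each of these 5 genes it lies outside the range of the other 4 WT clones under the same compounds. The same holds for CCND3 (6.51 CPM, below the others) and CCNE1 (21.04 CPM, above the others). Results that rest on it are given with and without it for the fit without the clone block, and the block was fitted only with it. All 10 genes passed the expression filter in every fit, and no library had 0 counts of any of them. The lowest counts were those of CCND1 (1 to 499 per library, median 15) and CCNE2 (2 to 210, median 24). Levels below are CPM scaled to a common library size, and they are compared within a gene only, since 3' counts of different genes are not on 1 scale. A change is the log2 ratio of 2 groups with its standard error (SE), and it was called at an adjusted p under 0.05 in edgeR's quasi-likelihood test, with adjustment over all 14962 genes of the 24 h set. Unless another fit is named, a call or its absence refers to the fit of all 16 groups without the clone block, after the expression filter.

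**Figure D1:**
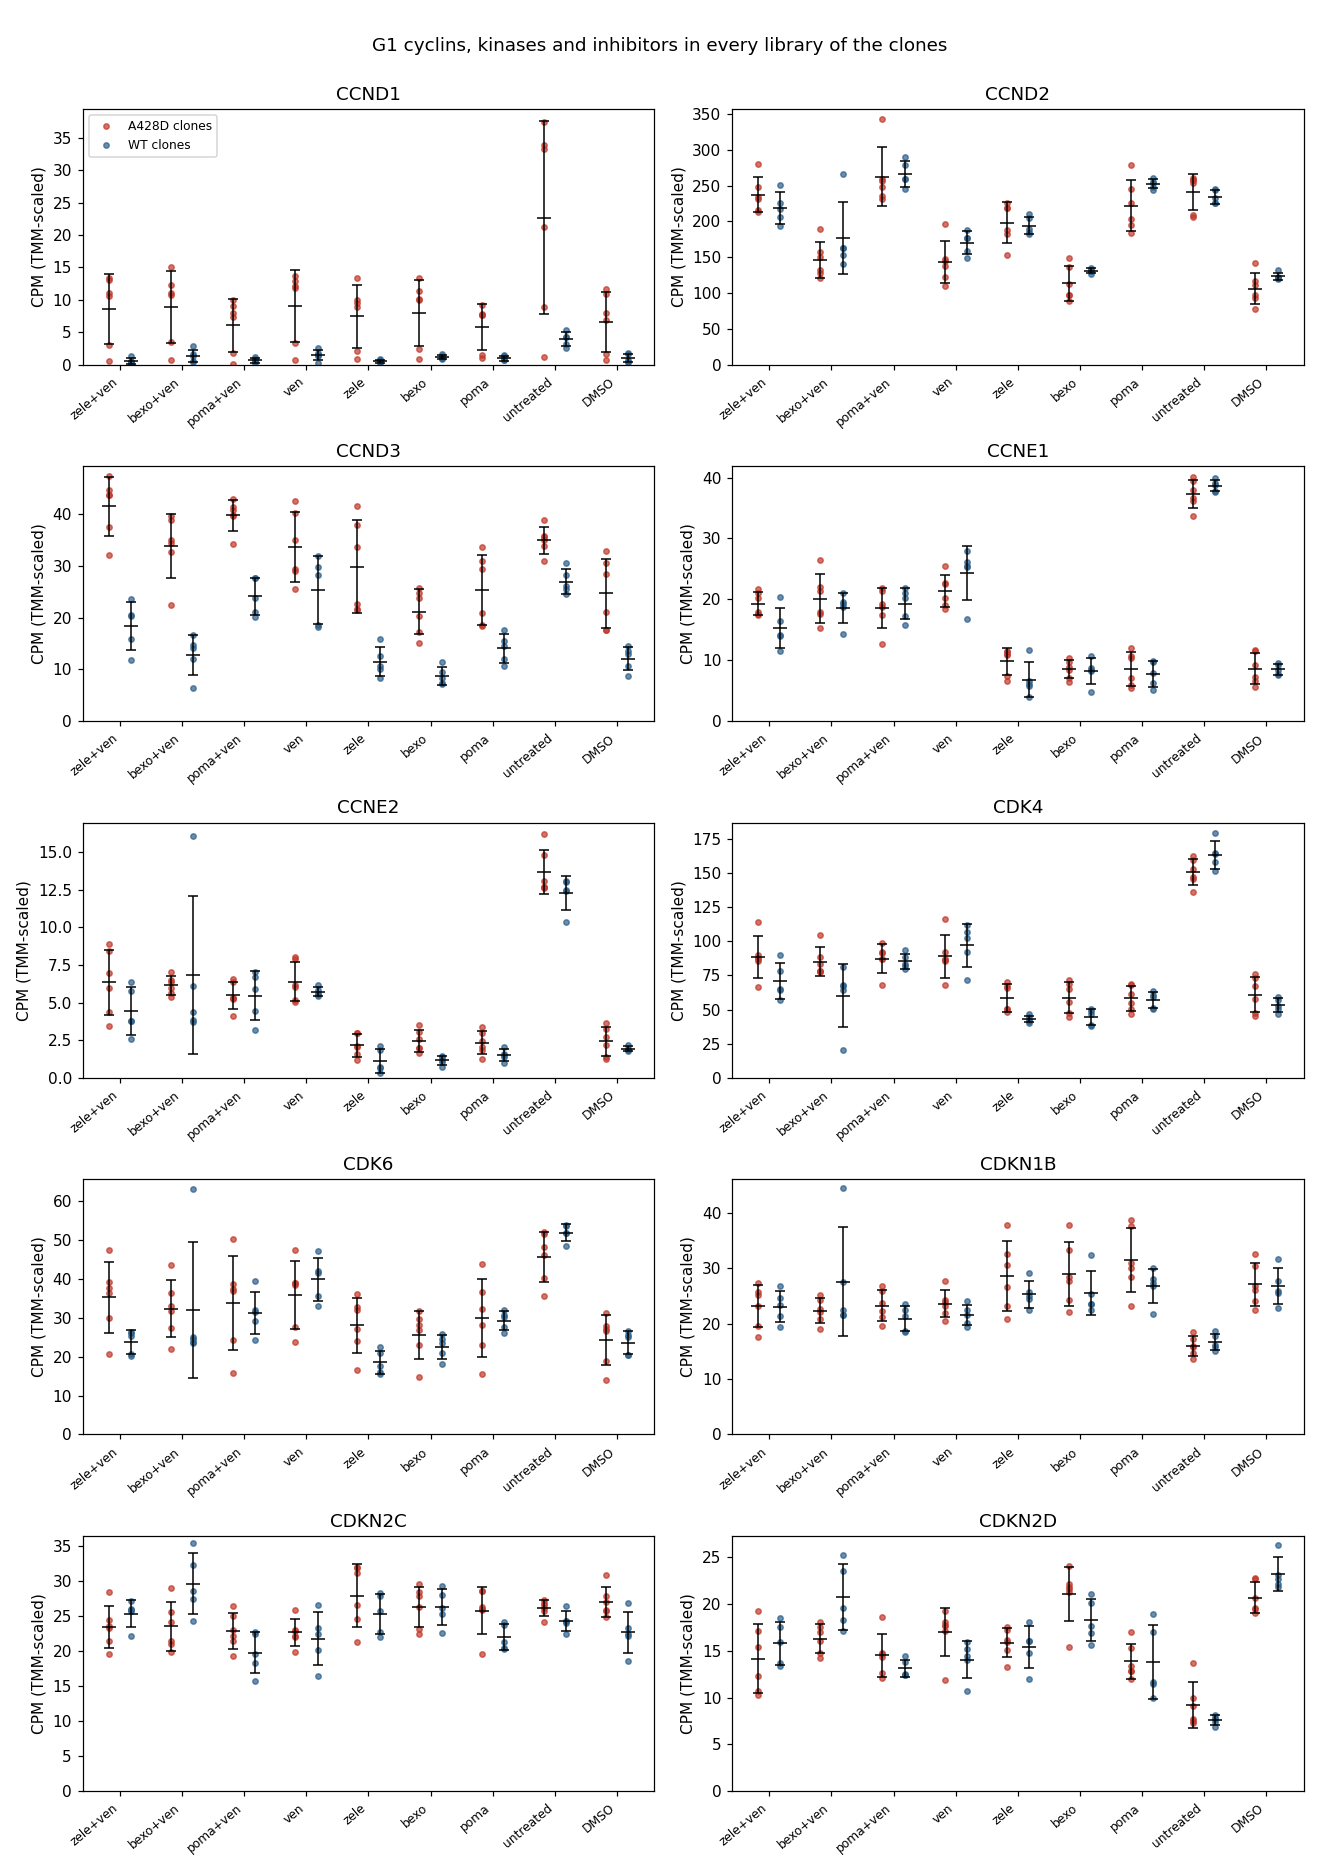
Scaled CPM of the 10 genes in every library, by condition, with A428D clones to the left of WT clones in each pair. Points are clones and bars are the mean ± SD. Against DMSO, CCND2 stands higher with pomalidomide and zelebrudomide, and CCNE1 and CCNE2 stand higher in the 8 groups with venetoclax. Untreated groups, a set of their own, have the highest means of CCNE1 (37.3 CPM in A428D and 38.7 CPM in WT clones) and CCNE2 (13.7 and 12.3 CPM). Their CCND2 means are 241 and 235 CPM.

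Of the single compounds, venetoclax gave the most calls among the 10 genes. Against DMSO, 4 of 10 were called in A428D clones, where 16.8% of all genes tested were called, and 7 of 10 in WT clones, where 32.8% were. The median change of the 10 genes was 0.43 in A428D clones and 0.62 in WT clones, beside -0.04 and -0.06 over all genes. Fibroblast and endothelial markers, of which COL1A1 is the main one counted here, summed to 1.43 to 5.90 CPM in A428D clones with venetoclax, against 5.88 to 16.2 CPM with DMSO, and to 1.94 to 4.06 CPM, against 6.13 to 11.7 CPM, in WT clones. Of 7 B cell markers 1 fell in A428D and 3 fell in WT clones with venetoclax. The part of these shifts in the changes below was not tested. A fit with the clone as a block, which compares each clone with itself, called 9 of 10 in A428D clones, against a background of 30.7%, and 8 of 10 in WT clones (45%). With zelebrudomide 1 of 10 was called in A428D clones (background 2.06%) and 2 of 10 in WT clones (6.57%), and with the block 2 (6.73%) and 4 (16.2%). Pomalidomide gave 2 of 10 in A428D clones (8.68%) and 2 of 10 in WT clones (9.99%), and with the block 3 (16.7%) and 3 (19.2%). Bexobrutideg gave 0 of 10 in both genotypes by edgeR and by DESeq2. In A428D clones 0% of all genes were called with it and no member had an unadjusted p under 0.05. In WT clones 2.45% were called and 3 members had an unadjusted p under 0.05, and the block called 2 of 10 (background 10.6%).

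The combinations called 6, 5 and 6 of 10 genes in A428D clones with zelebrudomide, bexobrutideg and pomalidomide in that order, where 26.2%, 15.7% and 30.4% of all genes were called. In WT clones they called 5, 4 and 7 of 10, where 23.4%, 21.3% and 36.8% were. With the block the zelebrudomide and bexobrutideg combinations called 10 of 10 in A428D clones (backgrounds 38.7% and 28.9%) and the pomalidomide combination 9 (42.5%). In WT clones the block called 6 (35.1%), 5 (32.5%) and 8 (47.9%), in the same order of compounds. The 5 include CDK6, which stood at 63.1 CPM in the WT clone 3 library of 1476519 counts and at 23.5 to 25.1 CPM in the other clones. Without that library and without the block the CDK6 change was 0.01 (adjusted p = 0.983, edgeR). The block was not fitted without it. The 14 comparisons with DMSO use the same 11 DMSO libraries, 6 of A428D and 5 of WT clones, so each is read from its own values. In bulk RNA, fewer cells of a type and less RNA per cell cannot be told apart.

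**Figure D2:**
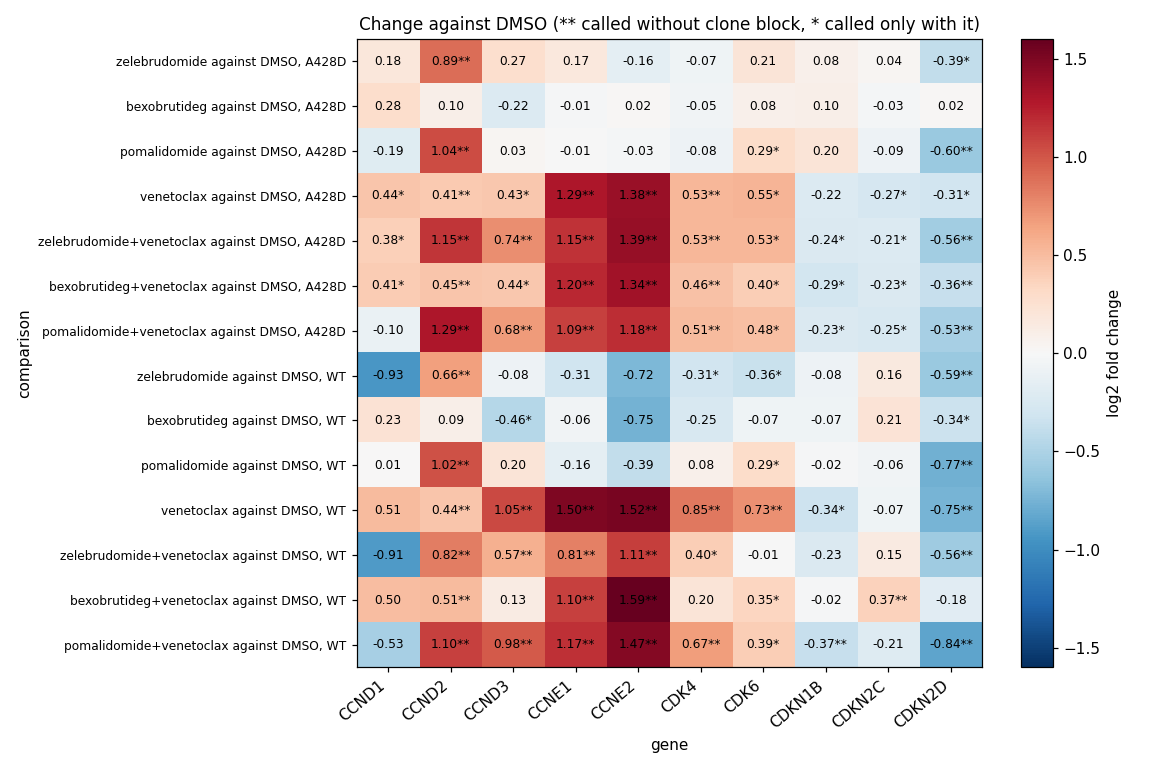
Log2 change of each gene against DMSO of the same genotype for the 7 treatments. Colour gives the log2 change, 2 asterisks mark a call without the clone block and 1 asterisk a call made only with it. The CCNE1 and CCNE2 columns are highest in the 8 rows with venetoclax, between 0.81 and 1.59, and CDKN2D lies below 0 in 13 of the 14 rows.

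Among the D cyclins, CCND2 rose with pomalidomide and with zelebrudomide in both genotypes. With pomalidomide it lay at 183 to 278 CPM (median 215) in A428D clones, against 77.96 to 142 CPM (median 104) with DMSO. The 5 WT clones in order had 255, 254, 244, 248 and 260.2 CPM with pomalidomide, against 122, 121, 132, 121 and 119 CPM with DMSO. The treated and DMSO libraries did not overlap in either genotype, and every one of the 11 clones was higher with the compound. The changes were 1.04 ± 0.12 (adjusted p = 1.61e-10) and 1.02 ± 0.13 (adjusted p = 6.53e-09). With pomalidomide the fibroblast and endothelial markers summed to 11.1 to 26.5 CPM in A428D clones, against 5.88 to 16.2 CPM with DMSO, and to 10.7 to 31.7 CPM, against 6.13 to 11.7 CPM, in WT clones. COL1A1 among them rose by 1.21 and 1.14, and of the 7 B cell markers CD22 fell (-0.53 in A428D and -0.65 in WT clones). The part of these shifts in the changes was not tested. With zelebrudomide CCND2 lay at 153 to 226 CPM (median 204) in A428D clones, and WT clones 1 to 5 had 189.7, 185, 209.8, 183 and 204 CPM. Again no treated library overlapped the DMSO libraries of its genotype. The fibroblast and endothelial markers summed to 7.38 to 18.8 CPM in A428D and 8.46 to 15.8 CPM in WT clones with zelebrudomide, and the B cell marker PAX5 fell in WT clones (-0.55), whose part was not tested either. The changes were 0.89 ± 0.12 (adjusted p = 2.11e-07) in A428D and 0.66 ± 0.13 (adjusted p = 0.000297) in WT clones.

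Bexobrutideg did not move CCND2 past the threshold. A428D clones had 89.1 to 149 CPM (median 105) with it and WT clones 1 to 5 had 131, 132, 130.3, 127 and 136 CPM, close to the DMSO values above. The 95% interval of the change ran from -0.14 to 0.34 in A428D clones and from -0.17 to 0.35 in WT clones. Zelebrudomide against bexobrutideg gave 0.79 ± 0.12 (adjusted p = 6.45e-06) in A428D and 0.56 ± 0.13 (adjusted p = 0.00944) in WT clones. 1 of 10 genes was called in each of these 2 comparisons, where 1.24% and 1.23% of all genes were. With the block 3 were called in A428D clones (background 4.82%), CCND2, CCND3 (0.48, adjusted p = 0.000549) and CDKN2D (-0.41, adjusted p = 0.00282). CCND3 was called there without the expression filter too (0.49, adjusted p = 0.0116). The WT call ended without WT clone 4 (0.57, adjusted p = 0.0602) or 5 (0.56, adjusted p = 0.0727). Zelebrudomide against pomalidomide gave -0.15 (95% interval -0.39 to 0.08) in A428D and -0.36 (-0.62 to -0.10) in WT clones. Without the block 0 of 10 genes were called in these 2 comparisons (backgrounds 0.842% and 7.43%), where 0 and 3 genes had an unadjusted p under 0.05 and DESeq2 called 0 and 0. With the block 3 of 10 were called in WT clones (background 18.4%), and all 3 were lower with zelebrudomide: CCND2 (adjusted p = 0.00119), CDK4 (-0.38, adjusted p = 0.00901) and CDK6 (-0.66, adjusted p = 2.49e-07). Without A428D clone 1, whose libraries bear on the shared spread only, CCND2 and CDK6 were called there too (-0.35, adjusted p = 0.0214 and -0.64, adjusted p = 0.0124). With only the 2 groups fitted all 3 were called (adjusted p = 7.66e-05, 0.00111 and 0.000107), CCND2 was called without the shallow library (0.042) and CDK6 without the expression filter (0.000148).

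Venetoclax alone also raised CCND2. A428D clones had 110.3 to 196 CPM (median 141) with venetoclax and WT clones 1 to 5 had 176, 159, 149, 189 and 177 CPM. In WT clones no venetoclax library overlapped the DMSO libraries, while in A428D clones the 2 groups overlapped and each of the 6 clones was higher than its own DMSO library. The changes were 0.41 ± 0.12 (adjusted p = 0.0117) and 0.44 ± 0.13 (adjusted p = 0.00628), and the A428D call ended without A428D clone 3 (0.37, adjusted p = 0.0578) or with only the 2 groups fitted (0.44, adjusted p = 0.0593). The highest CCND2 means of the 24 h set were those of pomalidomide with venetoclax, 263 ± 41.1 CPM (SD, n = 6) in A428D and 266 ± 17.96 CPM (SD, n = 5) in WT clones, against DMSO means of 106 ± 22.3 CPM (SD, n = 6) and 123 ± 5.29 CPM (SD, n = 5). With bexobrutideg and venetoclax the WT change was 0.51 ± 0.13 (adjusted p = 0.00319). It rested on the shallow library, without which it was 0.31, adjusted p = 0.0767, and it was not called when only the 2 groups compared were fitted (0.55, adjusted p = 0.0837).

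CCND3, the D cyclin most used by germinal centre B cells, rose with venetoclax in WT clones. Values in WT clones 1 to 5 were 18.5, 28.3, 32.02, 18.2 and 29.8 CPM with venetoclax, against 12.95, 13.5, 14.5, 8.81 and 10.8 CPM with DMSO, and no library of one group reached the other. In A428D clones it lay at 25.5 to 42.6 CPM (median 32.2) with venetoclax, against 17.6 to 32.8 CPM (median 24.7) with DMSO, and the groups overlapped. The change was 0.43 ± 0.17 (adjusted p = 0.0729) in A428D clones, which the block called (adjusted p = 0.000243), and 1.05 ± 0.20 (adjusted p = 2.04e-05) in WT clones. In A428D clones it was also called without A428D clone 5 (0.58, adjusted p = 0.0219), without WT clone 4 (0.47, adjusted p = 0.0479) and without the expression filter (0.46, adjusted p = 0.00466). With DMSO, A428D clones already stood above WT clones, and the difference in response to venetoclax was -0.62 ± 0.26 (adjusted p = 1). With zelebrudomide and venetoclax CCND3 changed by 0.74 ± 0.17 in A428D (adjusted p = 0.000615) and 0.57 ± 0.21 in WT clones (adjusted p = 0.0439). The WT call ended without A428D clone 3 or 6 or without WT clone 2, 3, 4 or 5, at adjusted p between 0.0501 and 0.178. With pomalidomide and venetoclax CCND3 was called higher in both genotypes. Its means were 39.8 CPM in A428D and 24.1 CPM in WT clones, against 24.7 and 12.1 CPM with DMSO. Bexobrutideg with venetoclax left it uncalled in both genotypes without the block, at 0.44 in A428D (adjusted p = 0.000227 with the block, 0.00441 without the expression filter, 0.037 without A428D clone 5 and 0.0493 without WT clone 4) and 0.13 in WT clones. With bexobrutideg alone WT clones had 7.32, 9.53, 11.5, 8.42 and 7.26 CPM, a change of -0.46 ± 0.22 that was called with the block (adjusted p = 0.0265).

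CCND1, which B cells normally do not use, had few counts in WT clones and stood higher in 4 of the 6 A428D clones. WT clones 1 to 5 had 0.648, 1.63, 1.80, 0.435 and 0.448 CPM with DMSO, and no condition of the 24 h set took a WT clone above 2.82 CPM. A428D clones 3 to 6 had 7.94, 6.83, 11.7 and 10.8 CPM with DMSO, whereas A428D clones 1 and 2 had 0.639 and 1.71 CPM. The same 2 A428D clones were the lowest in every condition, untreated included, with 0.161 to 3.51 CPM in the 24 h set. By edgeR without the block 0 of the 14 treatment comparisons called CCND1 (0 at an unadjusted p under 0.05, 0 by DESeq2), and its SE in WT clones reached 1.319. With the block CCND1 was called higher in A428D clones with venetoclax, at 0.47 (adjusted p = 0.00647), with zelebrudomide and venetoclax, at 0.39 (0.0223), and with bexobrutideg and venetoclax, at 0.44 (0.0129). With venetoclax alone the 6 clones had 0.715, 3.38, 12.9, 11.8, 13.6 and 12.2 CPM in order, and each was higher than its own DMSO library.

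**Figure D3:**
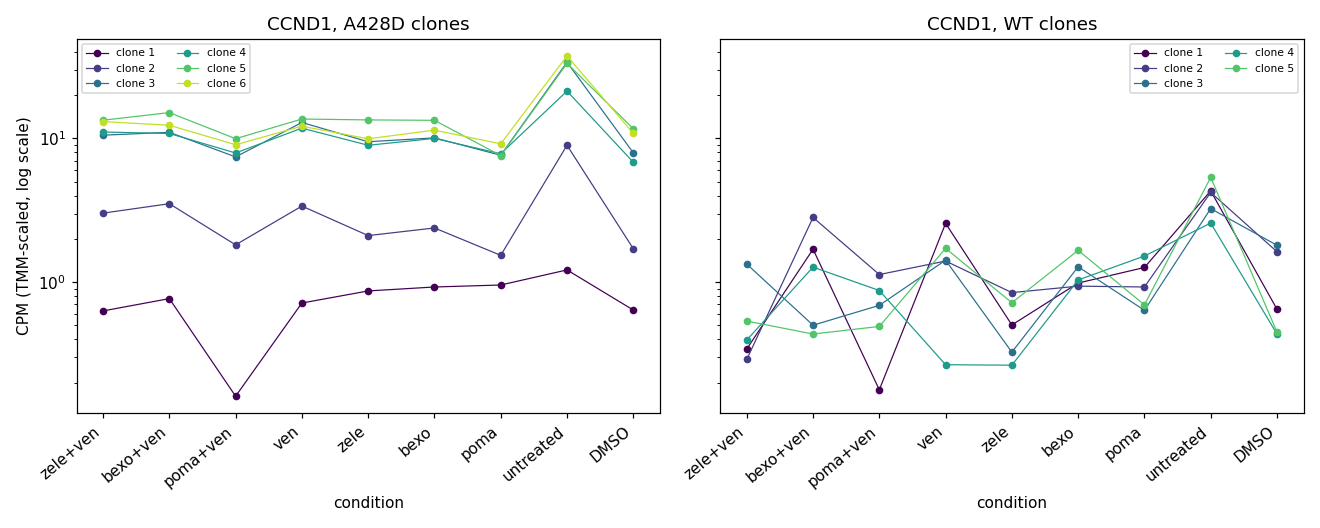
CCND1 in CPM (log axis) in every clone, with a line joining the libraries of 1 clone across conditions, A428D clones to the left of WT clones. A428D clones 3 to 6 lie above all WT clones in each condition, and A428D clones 1 and 2 lie below the other 4 A428D clones.

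A share within a library does not depend on how libraries are scaled. CCND2 made up 87.4% of the summed D cyclin counts in A428D clones with pomalidomide and 76.9% with DMSO, and 94.4% and 90.4% in WT clones. An exact permutation test over clones (two-sided) gave p = 0.0303 in A428D and p = 0.00794 in WT clones, the smallest value that 252 arrangements allow. That test sets the clones of 2 groups against each other, and after adjustment over the 14 comparisons none passed, with 0.111 the lowest adjusted p. With each clone set against its own DMSO library, the share was higher with pomalidomide in 6 of 6 A428D and 5 of 5 WT clones. An exact test over all sign changes of these differences, added after seeing the data, gave p = 0.0312 and p = 0.0625 (two-sided), the smallest that 6 and 5 pairs allow, and 0.0972 and 0.0972 after adjustment. With 5 and 6 pairs no result of this test could pass after adjustment over 14 comparisons. The rise was not particular to pomalidomide. With zelebrudomide and with bexobrutideg the share was also higher in 6 of 6 A428D and 5 of 5 WT clones, at the same p by this test. The mean differences were 7.21 and 3.73 points with zelebrudomide and 2.03 and 2.49 points with bexobrutideg. A share can be higher through more CCND2 or through less of the other D cyclins. With bexobrutideg CCND2 itself was called in neither genotype. Mean CCND3 with bexobrutideg was 21.2 CPM in A428D and 8.80 CPM in WT clones, against 24.7 and 12.1 CPM with DMSO. With venetoclax alone it was higher in 2 of 6 A428D and 0 of 5 WT clones (-0.38 and -4.21 points).

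Of the 10 genes, the E cyclins gave the largest changes with venetoclax in both genotypes. CCNE1, which activates CDK2 at the end of G1, lay at 18.4 to 25.5 CPM (median 21.3) in A428D clones with venetoclax, against 5.57 to 11.7 CPM (median 8.28) with DMSO. The 5 WT clones in order had 16.7, 25.4, 26.1, 25.5 and 27.99 CPM with venetoclax, against 8.42, 7.51, 9.61, 7.83 and 9.27 CPM with DMSO. No venetoclax library overlapped the DMSO libraries in either genotype, and WT clone 1 was the lowest of the treated WT clones. The change was 1.29 ± 0.17 (adjusted p = 2.34e-07) in A428D and 1.497 ± 0.18 (adjusted p = 2.61e-09) in WT clones. CCNE2, its close relative, lay at 5.00 to 8.05 CPM (median 6.09) in A428D clones with venetoclax, against 1.28 to 3.63 CPM (median 2.47) with DMSO. In WT clones 1 to 5 it had 5.58, 6.16, 5.42, 5.85 and 5.55 CPM, against 1.94, 1.88, 1.92, 2.18 and 1.79 CPM with DMSO. Its groups did not overlap either, at a median of 24 CCNE2 counts per library over the whole series. The change was 1.38 ± 0.25 (adjusted p = 4.76e-05) in A428D and 1.52 ± 0.28 (adjusted p = 1.06e-05) in WT clones.

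Both E cyclins rose in all 6 combination groups as well. In A428D clones CCNE1 changed by 1.15 with zelebrudomide and venetoclax, 1.20 with bexobrutideg and venetoclax and 1.09 with pomalidomide and venetoclax. In WT clones the same values were 0.81, 1.10 and 1.17. CCNE2 changed by 1.39, 1.34 and 1.18 in A428D clones and by 1.11, 1.59 and 1.47 in WT clones, in the same order of compounds. Adjusted p was at most 0.00502 in these 12 changes. Without the shallow library the WT change of CCNE2 with bexobrutideg and venetoclax was 1.16, adjusted p = 0.00172. The single compounds other than venetoclax took neither E cyclin past the threshold in either genotype. Of these, the lowest CCNE2 values were those of WT clones with zelebrudomide, 0.335, 0.676, 2.11, 1.85 and 0.718 CPM, a change of -0.72 ± 0.36 (adjusted p = 0.263).

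CDK4, the kinase partner of the D cyclins, rose with venetoclax in both genotypes. It lay at 67.9 to 117 CPM (median 86.5) in A428D clones, against 45.2 to 76.04 CPM (median 62.3) with DMSO, and the groups overlapped while each of the 6 clones was higher with venetoclax. Values in WT clones 1 to 5 were 71.9, 102, 112, 92.3 and 107 CPM, against 46.9, 56.8, 59.5, 52.9 and 50.4 CPM with DMSO, without overlap. The change was 0.53 ± 0.14 (adjusted p = 0.00488) in A428D and 0.85 ± 0.16 (adjusted p = 1.24e-05) in WT clones. It was also called with pomalidomide and venetoclax in both genotypes, 0.51 and 0.67. With zelebrudomide and venetoclax it was called in A428D clones (0.53 ± 0.14, adjusted p = 0.00319) and not in WT clones (0.40 ± 0.16, adjusted p = 0.0587). The WT change was called with the block (adjusted p = 0.00407), without A428D clone 1 (adjusted p 0.0335) or 4 (0.0469), by DESeq2 (0.0469), without the shallow library (0.0263) and with only the 2 groups fitted (0.00608). Bexobrutideg with venetoclax gave 0.46 ± 0.14 in A428D clones (adjusted p = 0.0164), which was lost without A428D clone 2 (0.46, adjusted p = 0.0552) or 3 (0.46, adjusted p = 0.0542). In WT clones it gave 0.20, 0.37, adjusted p = 0.0534 without the shallow library, and 0.42, adjusted p = 0.0398 without every library of WT clone 3. With zelebrudomide alone WT clones had 40.4, 44.3, 46.8, 41.4 and 42.7 CPM, every one lower than its DMSO library. That change of -0.31 ± 0.16 was called with the block (adjusted p = 0.049) and with only the 2 groups fitted (0.00885).

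CDK6, the other D cyclin kinase, rose with venetoclax in WT clones. WT clones 1 to 5 had 33.01, 41.5, 47.1, 41.9 and 35.6 CPM, against 20.3, 26.5, 25.1, 25.5 and 20.5 CPM with DMSO, without overlap, and A428D clones had 23.7 to 47.4 CPM (median 38.6), against 13.9 to 31.3 CPM (median 26.8) with DMSO. The change was 0.55 ± 0.21 (adjusted p = 0.0594) in A428D and 0.73 ± 0.23 (adjusted p = 0.00839) in WT clones, and the block called the A428D change (adjusted p = 3.4e-07). A428D clone 1 was the lowest A428D clone in each condition, and without it the A428D change was 0.56, adjusted p = 0.0165. Without WT clone 3 it was 0.55, adjusted p = 0.0384. It was also called by DESeq2 (adjusted p = 0.0476), without the expression filter (7.89e-05) and without the shallow library (0.0291). With zelebrudomide alone WT clones had 15.4, 22.5, 20.8, 17.6 and 16.2 CPM, each lower than its own DMSO library, and A428D clones had 16.5 to 36.2 CPM (median 29.5). In the fit of all groups without the block neither was called (0.21 in A428D and -0.36 in WT clones). With only the 2 groups fitted the WT change was called (-0.34, adjusted p = 0.0345). With the block the WT change (-0.36, adjusted p = 0.00792) and the difference between genotypes (0.57, adjusted p = 0.00291) were called. Pomalidomide gave 0.29 in A428D and 0.29 in WT clones, both called with the block (adjusted p = 0.0178 and 0.0154), and the WT change also with only the 2 groups fitted (0.021). In the fit of all groups without the block CDK6 was called in no combination. With the block it was called higher with every combination in A428D clones, and with bexobrutideg or pomalidomide and venetoclax in WT clones. With bexobrutideg and venetoclax the shallow library of WT clone 3 had 63.1 CPM and the other WT clones 23.5 to 25.1 CPM. Without that library and without the block the WT change was 0.01 (adjusted p = 0.983, edgeR). The A428D change with zelebrudomide and venetoclax was called by DESeq2 too (0.54, adjusted p = 0.0414).

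The inhibitor CDKN2D (p19) fell with pomalidomide in both genotypes, and with zelebrudomide and with venetoclax in WT clones. With pomalidomide it lay at 11.97 to 17.02 CPM (median 13.1) in A428D clones, against 19.03 to 22.7 CPM (median 20.1) with DMSO, without overlap. The 5 WT clones in order had 18.9, 9.90, 11.5, 16.98 and 11.7 CPM, against 22.7, 23.1, 22.1, 26.3 and 21.8 CPM with DMSO, also without overlap. The change was -0.60 ± 0.12 (adjusted p = 0.000273) in A428D and -0.77 ± 0.13 (adjusted p = 1.07e-05) in WT clones. With zelebrudomide A428D clones had 13.3 to 17.6 CPM (median 16.1) and WT clones 16.1, 16.1, 12.03, 18.1 and 14.7 CPM, all below every DMSO library of their genotype. That change was -0.39 ± 0.12 in A428D (adjusted p = 0.0784, and 0.00372 with the block) and -0.59 ± 0.13 in WT clones (adjusted p = 0.00167). Venetoclax gave -0.31 ± 0.12 in A428D (adjusted p = 0.0735, and 0.00993 with the block) and -0.75 ± 0.13 in WT clones (adjusted p = 8.72e-06). With bexobrutideg A428D clones had 15.4 to 24.1 CPM (median 21.7), a change of 0.02 (95% interval -0.21 to 0.26), and WT clones had 21.1, 15.6, 16.9, 20.1 and 17.7 CPM, a change of -0.34 ± 0.13 called with the block (adjusted p = 0.0177) and with only the 2 groups fitted (0.041). In the combinations CDKN2D fell with pomalidomide and with zelebrudomide, by 0.53 and 0.56 in A428D clones and by 0.84 and 0.56 in WT clones on the log2 scale. Bexobrutideg with venetoclax gave -0.36 ± 0.12 in A428D clones (adjusted p = 0.0332). That call ended when any clone but WT clone 3 was left out, at adjusted p between 0.0503 and 0.158, and without the expression filter (adjusted p = 0.194). In WT clones it gave -0.18 (adjusted p = 0.38).

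CDKN2C (p18), the other INK4 gene, and CDKN1B (p27) had the narrowest ranges of group means among the 10. CDKN2C group means ran from 19.8 to 29.6 CPM over the 16 groups of the 24 h set, and those of CDKN1B from 20.9 to 31.5 CPM. CDKN2C was called in 1 of 14 treatment comparisons, and in 5 with the block. Values in WT clones 1 to 5 were 24.2, 35.4, 28.6, 27.4 and 32.2 CPM of it with bexobrutideg and venetoclax, against 18.5, 22.4, 22.1, 26.8 and 23.3 CPM with DMSO, and the groups overlapped. The change was 0.37 ± 0.12 (adjusted p = 0.0128), and the call ended without WT clone 2 (0.32, adjusted p = 0.0944) or 5 (0.36, adjusted p = 0.0593), without the expression filter (adjusted p = 0.19) or with only the 2 groups fitted (adjusted p = 0.104). In A428D clones the same treatment gave 19.8 to 29.003 CPM (median 22.8), against 24.8 to 30.8 CPM (median 26.4) with DMSO, a change of -0.23 ± 0.10 that was called with the block (adjusted p = 0.0216). In A428D clones the block also called it lower with venetoclax (-0.27, adjusted p = 0.00657), with zelebrudomide and venetoclax (-0.22, 0.0289) and with pomalidomide and venetoclax (-0.26, 0.00705). The venetoclax change was called with only the 2 groups fitted as well (0.0465), and that of pomalidomide and venetoclax without A428D clone 4 (0.0449). CDKN1B was called in 1 of 14 as well, and in 5 with the block. WT clones had 18.5, 22.4, 18.7, 21.4 and 23.6 CPM with pomalidomide and venetoclax, against 25.6, 27.8, 25.96, 31.8 and 22.9 CPM with DMSO. Its change was -0.37 ± 0.14 (adjusted p = 0.0297), which ended without A428D clone 6 or without WT clone 1, 2, 3 or 4, at adjusted p between 0.0515 and 0.173. Venetoclax alone gave -0.34 ± 0.14 in WT clones (adjusted p = 0.0541, 0.00375 with the block, 0.0473 without WT clone 3, 0.0389 without the shallow library and 0.00783 with only the 2 groups fitted). In A428D clones the block called it lower with zelebrudomide and venetoclax (-0.24, adjusted p = 0.0318), with bexobrutideg and venetoclax (-0.29, 0.012) and with pomalidomide and venetoclax (-0.24, 0.0318).

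The combinations were next compared with venetoclax alone, which they share. Adding zelebrudomide called 1 of 10 in A428D clones, where 1.07% of all genes were called, and 4 of 10 in WT clones, where 21.2% were. Bexobrutideg called 0 of 10 in A428D clones (0% of all genes, with no member at an unadjusted p under 0.05 and none by DESeq2) and 4 of 10 in WT clones (15.5%). Pomalidomide called 1 of 10 in A428D (7.91%) and 1 of 10 in WT clones (8.41%). The block raised the count to 2 in A428D clones with zelebrudomide (background 5.11%), and to 3 in A428D (16.3%) and 4 in WT clones (17.2%) with pomalidomide. In WT clones it called 6 with zelebrudomide (32.5%) and 6 with bexobrutideg (25.4%). The difference between genotypes in these added effects was not tested.

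In WT clones CCNE1, CDK4 and CDK6, which rose with venetoclax alone, were lower with zelebrudomide and venetoclax. CCNE1 had 11.5, 16.5, 20.3, 14.2 and 13.9 CPM in WT clones 1 to 5 with both compounds, against 16.7, 25.4, 26.1, 25.5 and 27.99 CPM with venetoclax alone. Every clone was lower with both, and the change was -0.69 ± 0.19 (adjusted p = 0.00487). CDK6 had 20.7, 26.1, 25.3, 26.3 and 20.1 CPM with both, against 33.01, 41.5, 47.1, 41.9 and 35.6 CPM with venetoclax, without overlap. Its change was -0.74 ± 0.24 (adjusted p = 0.018). CDK4 changed by -0.45 ± 0.16 (adjusted p = 0.0301), which was lost without WT clone 1, 2, 4 or 5, at adjusted p between 0.0539 and 0.117. CCND3 (-0.48 ± 0.20) and CCND1 (-1.42 ± 1.25) were not called in the fit of all groups, and both were called lower with the block (adjusted p = 0.00256 and 0.00833) and without the expression filter (0.00163 and 0.0109). CCND3 was also called without A428D clone 1, 2 or 5 (adjusted p = 0.0434, 0.0398 and 0.04998). CCND2 went up instead, with 252, 206, 193, 226 and 217 CPM, against 176, 159, 149, 189 and 177 CPM with venetoclax. That change of 0.38 ± 0.13 (adjusted p = 0.0313) was lost without any 1 of 8 clones, at adjusted p between 0.053 and 0.137, or without the expression filter (adjusted p = 0.14). These WT combination libraries were shallower (3149400 to 6123117 counts, against 6490252 to 7393694 with venetoclax) and held more mitochondrial counts (9.41% to 10.3%, against 7.73% to 8.95%), and the part of both in these changes was not tested.

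In A428D clones the same addition left CCNE1 at -0.14 (95% interval -0.45 to 0.17), CDK4 at -0.003 (-0.28 to 0.27) and CDK6 at -0.02 (-0.42 to 0.39), none of them called. CCND2 rose, with 213 to 280.0 CPM (median 233) under both compounds, against 110.3 to 196 CPM (median 141) with venetoclax alone. Every A428D library with both compounds lay above every one with venetoclax, and the change was 0.73 ± 0.12 (adjusted p = 3.78e-05). With the block CCND3 was also higher (0.32, adjusted p = 0.0257).

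Adding bexobrutideg in WT clones lowered CCND3 and CDK4 and raised both INK4 inhibitors. CCND3 had 12.02, 16.7, 6.51, 14.2 and 14.8 CPM in WT clones 1 to 5 with both, against 18.5, 28.3, 32.02, 18.2 and 29.8 CPM with venetoclax. No library of one group overlapped the other, and the change was -0.92 ± 0.21 (adjusted p = 0.000908). CDK4 changed by -0.64 ± 0.16 (adjusted p = 0.00209), with -0.41, adjusted p = 0.0611 when WT clone 3 was left out of all groups and -0.49, adjusted p = 0.0118 when only its shallow library was. CDKN2C changed by 0.45 ± 0.12 (adjusted p = 0.00399), and this call ended without WT clone 2 (0.36, adjusted p = 0.0668) or without the expression filter (adjusted p = 0.125). CDKN2D had 18.3, 17.1, 23.5, 25.2 and 19.6 CPM with both, against 14.02, 15.97, 10.7, 15.2 and 14.4 CPM with venetoclax, without overlap. Its change was 0.57 ± 0.14 (adjusted p = 0.00284). With only the 2 groups fitted CDK4, CDKN2C and CDKN2D were not called (adjusted p = 0.2, 0.121 and 0.0588). CDK6 (-0.39, adjusted p = 0.274) and CCNE1 (-0.40, adjusted p = 0.13) were not called. Both were called with the block (adjusted p = 0.000408 and 0.0139) and without the expression filter (0.0135 and 0.0312). CDK6 was also called without the shallow library (-0.74, adjusted p = 0.0203). Clone 3 there stood at 63.1 CPM and the other 4 clones between 23.5 and 25.1 CPM. Without it CCND3 changed by -0.85, adjusted p = 0.0038, CDKN2C by 0.43, adjusted p = 0.0101 and CDKN2D by 0.50, adjusted p = 0.0118. The other 4 WT combination libraries held 4475082 to 6110216 counts, against 6490252 to 7393694 with venetoclax, and 9.22% to 9.96% mitochondrial counts, against 7.73% to 8.95%. MT-ND6 and MT-CYB were called higher (1.69 and 0.24), and the part of these shifts in the changes was not tested. In A428D clones every change on adding bexobrutideg lay between -0.15 and 0.05. The widest 95% interval there apart from CCND1 was that of CCNE2, -0.48 to 0.39.

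Adding pomalidomide raised CCND2 and called no other gene in either genotype without the block. A428D clones had 232 to 343 CPM (median 252) of CCND2 with both, against 110.3 to 196 CPM (median 141) with venetoclax alone. WT clones 1 to 5 had 290.5, 245, 259, 278 and 259 CPM with both, against 176, 159, 149, 189 and 177 CPM. The groups did not overlap in either genotype, and the changes were 0.88 ± 0.12 (adjusted p = 3.93e-08) and 0.65 ± 0.13 (adjusted p = 0.000204). With the block CCND1 was lower in both genotypes (-0.60, adjusted p = 0.000916, and -1.04, adjusted p = 0.028), CCND3 was higher in A428D clones (0.26, adjusted p = 0.0451), and CCNE1 and CDK6 were lower in WT clones (-0.33 and -0.35, adjusted p = 0.0212 and 0.00242).

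**Figure D4:**
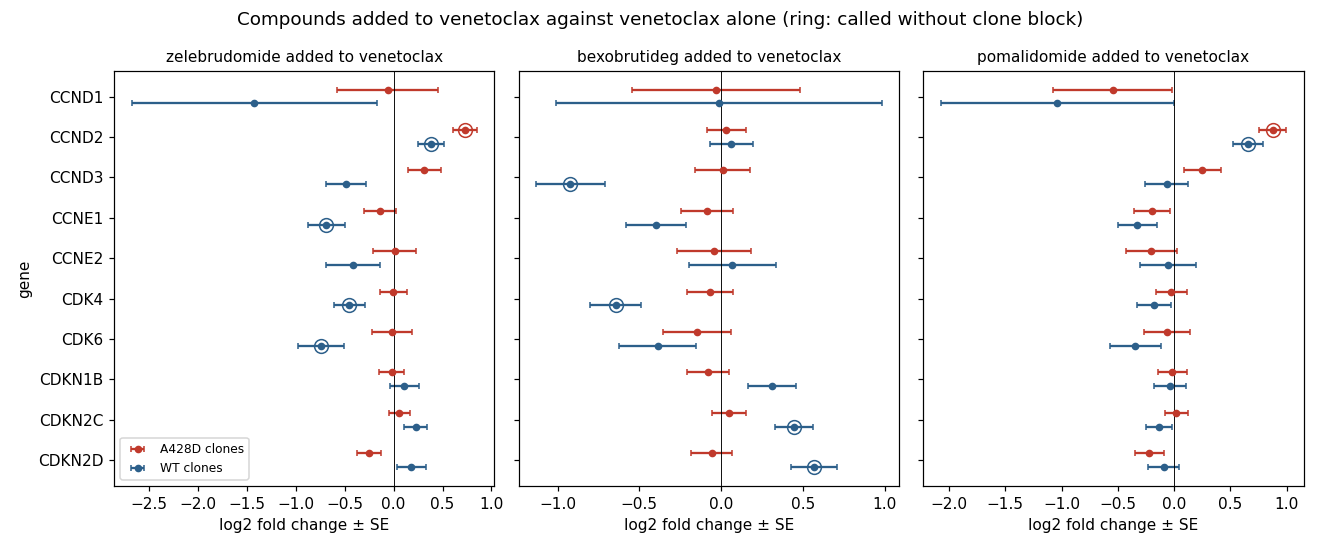
Log2 change (± SE) of each gene when zelebrudomide, bexobrutideg or pomalidomide was added to venetoclax, against venetoclax alone, in A428D clones and WT clones. Rings mark changes called without the block. CCND2 is the called gene in A428D clones, with zelebrudomide and with pomalidomide, while CCNE1, CDK4 and CDK6 lie below 0 in WT clones with zelebrudomide.

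The difference in response between genotypes was tested directly for each treatment. 1 gene was called in 1 of the 7 tests. CDKN2C differed by -0.60 ± 0.15 with bexobrutideg and venetoclax (adjusted p = 0.0181, background 1.94%), being lower against DMSO in A428D and higher in WT clones, as given above. Its call ended without A428D clone 2, 3 or 5 or WT clone 2, 3 or 5, at adjusted p between 0.054 and 0.141, without the expression filter (adjusted p = 0.285) or with only the groups compared (adjusted p = 0.171). Without the shallow library it was -0.58, adjusted p = 0.0328. For zelebrudomide, bexobrutideg and pomalidomide 0 of 10 were called by edgeR and by DESeq2 (backgrounds 1.04%, 0.615% and 0%), and 0, 1 and 0 genes had an unadjusted p under 0.05. For venetoclax, zelebrudomide with venetoclax and pomalidomide with venetoclax 0 of 10 were called by both tools (backgrounds 0%, 3.32% and 0.00668%), and 2, 1 and 0 genes had an unadjusted p under 0.05. The block added CDK6 with zelebrudomide, given above (background 6.76%), and CDK6 (0.52, adjusted p = 0.00519) and CDKN2C (-0.38, adjusted p = 0.0382) with zelebrudomide and venetoclax (background 11.6%). The CDK6 difference with zelebrudomide and venetoclax was also called without the expression filter (0.63, adjusted p = 0.0455). CDKN2C with bexobrutideg and venetoclax stayed called with the block (-0.62, adjusted p = 0.000279, background 7.45%).

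Without any of the compounds, A428D clones differed from WT clones in CCND3. With DMSO, 1 of 10 genes was called, where 7.13% of all genes were. A428D clones 1 to 6 had 17.6, 17.7, 21.02, 32.8, 30.6 and 28.4 CPM of CCND3, against 12.95, 13.5, 14.5, 8.81 and 10.8 CPM in WT clones 1 to 5. All A428D clones stood above all WT clones, and the change was 1.01 ± 0.19 (adjusted p = 0.00784). Untreated, A428D clones 1 to 6 had 38.8, 30.9, 35.8, 35.6, 34.96 and 33.9 CPM, against 25.5, 26.2, 30.6, 24.5 and 28.3 CPM in WT clones 1 to 5. Again the groups did not overlap, and the change was 0.38 ± 0.07 (adjusted p = 0.00281), 1 of 10 called beside 5.9% of all genes. CCND1 changed by 2.68 ± 0.73 with DMSO (adjusted p = 0.0512) and 2.54 ± 0.70 untreated (adjusted p = 0.0694). It was called by DESeq2 in both (adjusted p = 0.0059 and 0.00368) and without A428D clone 1 in both (2.93, adjusted p = 0.00623 and 2.79, adjusted p = 0.00598). With DMSO it was also called in the fit of all libraries of the 24 h set (2.69, adjusted p = 0.0145) and without A428D clone 2 (2.88, adjusted p = 0.0303), and CCND2 was lower without A428D clone 1 (-0.33, adjusted p = 0.0228). The remaining 8 genes were called in neither setting, with changes between -0.23 and 0.28.

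Untreated libraries form a set of their own, so the set and the exposure to DMSO cannot be told apart, and these values are a description of both. Against DMSO, 9 of 10 genes were called in A428D clones, where 71% of all genes were, and 8 of 10 in WT clones, where 72% were. CCNE2 lay at 12.6 to 16.2 CPM (median 12.9) in untreated A428D clones and CCNE1 at 33.7 to 40.1 CPM (median 37.3), well above the DMSO values given above. CCNE1 differed by 2.13 ± 0.11 in A428D and 2.20 ± 0.12 in WT clones, and CCNE2 by 2.53 ± 0.15 and 2.66 ± 0.17. CDK4 differed by 1.33 and 1.63, CDKN1B by -0.74 and -0.66, and CDKN2D by -1.15 and -1.596, in A428D and WT clones in that order. All of these had an adjusted p of at most 1.49e-06. CDKN2C was called in neither genotype (-0.03 and 0.12).

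The order of the group means shows how far the conditions separate. In A428D clones CCND2 ran from pomalidomide with venetoclax (263 CPM) through zelebrudomide with venetoclax (237), pomalidomide (222) and zelebrudomide (198) to bexobrutideg with venetoclax (147), venetoclax (143), bexobrutideg (113) and DMSO (106). Only the steps below zelebrudomide and below venetoclax exceeded the larger SD of the 2 neighbours. In WT clones 4 of the 7 steps did, those below pomalidomide, zelebrudomide with venetoclax, venetoclax and bexobrutideg. CCNE1 in A428D clones had 1 such step, between the lowest venetoclax group (18.6 CPM, pomalidomide with venetoclax) and the highest group without it (9.81 CPM, zelebrudomide). In WT clones it had 2, below venetoclax alone (24.3 CPM) and below zelebrudomide with venetoclax (15.3 CPM). CCND1, CDKN1B and CDKN2C had no neighbours that differed beyond their spread in either genotype.

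Other genes of the pathway were read from lists. Of 31 tested G1 regulators outside the 10 (34 listed), 8 rose and 1 fell with venetoclax in A428D clones, and 15 rose and 3 fell in WT clones, beside 16.8% and 32.8% of all genes called in either direction. CDC25A, the phosphatase that activates CDK2, rose by 1.16 in A428D and 1.75 in WT clones, and E2F1 by 0.88 and 1.23. Of 27 S phase genes transcribed by E2F, 20 rose and 0 fell with venetoclax in A428D clones, and 26 rose and 0 fell in WT clones. The median change of the 27 genes was 0.68 and 1.23, beside the medians of all genes given above. MCM10, a replication factor, rose by 1.10 and 1.93, and RRM2, the small subunit of ribonucleotide reductase, rose by 1.18 in A428D clones. Of 24 G2 and mitosis genes, 0 were called by edgeR in A428D clones (0 at an unadjusted p under 0.05, 0 by DESeq2) and 1 in WT clones, CDK1 at 0.75. On adding zelebrudomide to venetoclax in WT clones 7 of the 27 S phase genes fell and none rose (21 fell with the block), beside 21.2% of all genes called in either direction (32.5% with the block), MCM10 by 0.79 among them. Of the 31 other G1 regulators 4 rose and 6 fell there, CDC25A by 0.88 and E2F1 by 0.84, and in A428D clones 0 genes of these 2 lists were called by edgeR without the block (3 G1 and 0 S phase genes at an unadjusted p under 0.05, 0 and 0 by DESeq2), where 1.07% of all genes were called.

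Among 18 listed regulators that act upstream of the 10 genes, 4 rose and 1 fell with venetoclax in A428D clones and 8 rose and 3 fell in WT clones, beside 16.8% and 32.8% of all genes called. MYC rose with venetoclax by 0.57 in A428D and 0.70 in WT clones. IRF4 (0.48) and NFKB1 (0.36) rose in A428D clones and EGR1 in WT clones (0.85). FOXO1 fell in A428D clones (-0.46), and FOXO4 (-0.97) and FOXO3 (-0.66) fell in WT clones. On adding zelebrudomide to venetoclax in WT clones 1 of the 18 rose and 8 fell, and on adding bexobrutideg 2 rose and 7 fell (backgrounds 21.2% and 15.5%). IRF4 and RELB, which the B-cell receptor and NF-kB drive in this lymphoma type, fell in WT clones when zelebrudomide (-1.43 and -1.46) or bexobrutideg (-0.96 and -1.52) was added to venetoclax. Both also fell in WT clones when pomalidomide was added (-0.74 and -0.36). In A428D clones IRF4 (-0.62) and NFKB1 (-0.72) fell on adding pomalidomide. Of this list, 0 of 18 were called by edgeR in A428D clones on adding zelebrudomide (2 at an unadjusted p under 0.05, 0 by DESeq2) or bexobrutideg (0 and 0) without the block, where 1.07% and 0% of all genes were called.

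Over the 16 groups of the 24 h set, the group means of CCNE1 and CCNE2 had a Pearson r of 0.959, those of CCNE1 and CDK4 0.906, those of CCND1 and CCND3 0.759, and those of CCND2 and CDKN2D -0.834. These values describe 16 means that share clones and DMSO libraries. Among all genes tested, the patterns most like that of CCNE2 were those of TIMM21 (r = 0.990), HAT1 (0.987) and UBE2T (0.986). CCND3 was most like NUDT1 (0.982), SNRPA (0.979) and PSMB6 (0.979), and CCND1 most like CDH12 (0.979), CTCFL (0.978) and SP110 (0.977).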

How the data were processed

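3' bulk RNA-seq libraries of 100 samples were analysed from 1 deposited table. Per the submitters' processing notes the tools include fastp 0.24.0, STAR 2.7.11, SAMtools 1.22.1, featureCounts of Subread 2.1.1, FastQC 0.12.1, MultiQC 1.32 and edgeR, on GRCh38 (hg38), with no role or order given here. The authors deposited estimated counts per gene, not normalized. Of the deposited values 8.75% were not whole, and they were rounded, which changed the summed total by -0.00678%. 92 spike-in rows were left out of library sizes (at most 0.000976% of a library). All columns matched a sample.

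Genes were kept by filterByExpr (minimum count 10, minimum total 15), libraries were scaled by TMM, and edgeR 4.0.16 (R 4.3.3) quasi-likelihood tests were run over 16 groups and 88 libraries, with Benjamini-Hochberg adjustment over all genes tested. The genotype comparisons used the 11 DMSO or the 11 untreated libraries, and untreated was compared with DMSO over 22 libraries. Levels are CPM on TMM-scaled library sizes over all 100 libraries. A 95% interval is the log2 change with the normal multiple of its SE. The CCND2 share was tested by an exact permutation test and, as an alternative chosen after seeing the data, by an exact sign-change test of within-clone differences. Per the labels the same clone number within a genotype is the same clone, so libraries are paired. Over the 500 most variable genes the deviations of libraries of 1 clone had a median correlation of 0.716 (lowest -0.0705), against -0.174 between clones, and 87 of 88 libraries were nearest to their own clone. The clone was therefore also fitted as a block.

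Alternatives were the clone block, RLE scaling, DESeq2 1.42.0, no expression filter, only the groups compared, leaving out each clone, leaving out the library under 3000000 counts, all libraries for the genotype comparison under DMSO, and CPM on library totals. The edgeR test without the block was also run on simulated counts with known changes in 1 contrast. Those counts held no clone effect, unlike these libraries, so that run does not show how the tests behave here. All 10 genes were tested in each comparison, though not every change is printed. Named beside them are up to 4 called genes of a list by size of change, and the 3 most similar patterns for the 3 genes of widest range. The genes, lists and tests were chosen with earlier results of these data known. Tables were handled with Python 3.11.15, NumPy 2.4.6 and pandas 2.3.3. Nothing states that clones were treated in separate experiments, so p-values measure the spread between clones. Those of the block and of the sign-change test measure the spread between clones in the size of the change.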

Additional observations from a re-analysis of the deposited data

Results flagged for a closer look

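Of 180 sets of clones (10 genes in 18 groups), 15 held a clone that lay far from the others by Dixon's criterion, which chance alone meets in about 1 of 20 sets. Of these, 5 came from the shallow library of WT clone 3 with bexobrutideg and venetoclax, with 266 CPM of CCND2, 16.03 CPM of CCNE2, 63.1 CPM of CDK6 and 44.6 CPM of CDKN1B as the highest, and 20.5 CPM of CDK4 as the lowest of the 5 clones. The library held 1476519 counts, and the part of its depth in these values was not tested.

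A further 4 outlying values were the highest or lowest of a venetoclax combination. A428D clone 1 had 343 CPM of CCND2 (others at most 259.6) and 34.2 CPM of CCND3 (others at least 39.7) with pomalidomide and venetoclax. WT clone 3 had 1.33 CPM of CCND1 (others at most 0.535) and WT clone 1 had 22.1 CPM of CDKN2C (others at least 25.7) with zelebrudomide and venetoclax. With a single compound, A428D clone 2 had 19.5 CPM of CDKN2C under pomalidomide (others at least 25.8), and A428D clone 3 had 15.4 CPM of CDKN2D under bexobrutideg (others at least 21.3) and 11.9 CPM under venetoclax (others at least 17.1). WT clone 1 had 16.7 CPM of CCNE1 under venetoclax (others at least 25.4). WT clone 3 had 132 CPM of CCND2 under DMSO (others at most 122), and WT clone 2 had 10.3 CPM of CCNE2 untreated (others at least 12.4).

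Interaction tests of the difference in response between A428D and WT clones called CDKN2C and CDK6 in some fits. CDKN2C differed by -0.60 with bexobrutideg and venetoclax, where 1.94% of all genes were called. With the clone block it differed by -0.62 there (7.45% of all genes called). The call without the block ended when single clones were left out, without the expression filter and with only the groups compared, as given above. With zelebrudomide and venetoclax CDKN2C differed by -0.38 with the block (11.6%). With the block CDK6 differed by 0.57 with zelebrudomide (6.76%) and by 0.52 with zelebrudomide and venetoclax (11.6%). Neither CDK6 difference was called without the block by edgeR after the expression filter or by DESeq2. Without the expression filter the CDK6 difference with both compounds was 0.63 (adjusted p = 0.0455, edgeR).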

How the results depend on the processing

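The counts below are of the 10 genes. With the clone as a replicate block they were 2 with zelebrudomide, 9 with venetoclax and 10 with zelebrudomide or bexobrutideg and venetoclax in A428D clones, and 4 with zelebrudomide and 2 with bexobrutideg in WT clones. The block also gave 2 (zelebrudomide) and 3 (pomalidomide) on addition to venetoclax in A428D clones, 4 (pomalidomide) in WT clones, 3 for zelebrudomide against bexobrutideg in A428D clones and against pomalidomide in WT clones, and 1 and 2 for the response differences with zelebrudomide and with zelebrudomide and venetoclax. It ended no call of the 10 genes and added 47, and it moved the count over all genes by more than 1.5 times in 25 of 33 comparisons. Fitting only the groups compared gave 4 with zelebrudomide, 1 with bexobrutideg, 2 with bexobrutideg and venetoclax, 1 on adding bexobrutideg and 3 for zelebrudomide against pomalidomide in WT clones, and 0 for the response difference with bexobrutideg and venetoclax. Without the expression filter the response differences gave 1 with zelebrudomide and venetoclax and 0 with bexobrutideg and venetoclax, zelebrudomide against bexobrutideg in A428D clones gave 2, and zelebrudomide against pomalidomide in WT clones gave 1, as it did without the shallow library. A428D against WT clones gave 2 by DESeq2 with DMSO and untreated, and 2 with DMSO over all libraries. The cause of these shifts was not tested. The count over all genes also moved by more than 1.5 times in 15 comparisons with only the groups fitted, and stayed in 16. Without the expression filter it moved in 11 and stayed in 24, and leaving out 1 clone moved it in 75 refitted comparisons and not in 310. The shares of all genes called under these settings are not given, so these counts are not a result about the 10 genes. The sign-change test of the CCND2 share, which sets each clone against itself, could pass in none of the 14 comparisons at 5 and 6 pairs. Its outcome was therefore fixed and decides nothing. RLE scaling moved no count of the 10 genes by more than 1.5 times. Leaving out each clone gave 3 to 5 with bexobrutideg and venetoclax in A428D clones, 0 to 1 for its response difference, 2 to 5 on adding zelebrudomide in WT clones, 0 to 1 and 0 to 2 for zelebrudomide against bexobrutideg and against pomalidomide in WT clones, and 1 to 3 and 1 to 2 for A428D against WT clones with DMSO and untreated. No change of the 10 genes that was called in either fit reversed, and 17 of 180 group means moved by more than 1 SD on library totals. CCND1 and CCNE2 are limited by depth, at a median of 15 and 24 counts per library.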

Other observations

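The untreated parental line, which belongs to neither group of clones, had 3.66 CPM of CCND1, 258.9 CPM of CCND2, 29.1 CPM of CCND3, 40.02 CPM of CCNE1, 12.3 CPM of CCNE2 and 162 CPM of CDK4. It had 57.3 CPM of CDK6, 16.2 CPM of CDKN1B, 23.7 CPM of CDKN2C and 8.54 CPM of CDKN2D. CCND1 and CCND3 of this library lay inside the range of the 5 untreated WT clones (2.57 to 5.35 CPM and 24.5 to 30.6 CPM) and CCND3 below that of the 6 untreated A428D clones (30.9 to 38.8 CPM). As a single library it was not tested.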
